A study of Mus musculus with 7 samples.

Results

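A set of 10 genes of lipid handling was followed through muscularis macrophages, the macrophages of the muscle wall of the gut. They were the liver X receptors Nr1h2 and Nr1h3, the receptor targets Abca1, Abcg1, Mylip and Apoe, and the lipid-loading genes Lpl, Plin2, Gpnmb and Fabp4. The 10 genes were taken by name from a table of 17209 genes, all 10 had a row, and all 10 were tested. The series compared 4 libraries after sham surgery (Sham 1 to Sham 4) with 3 libraries after pMCAO surgery (pMCAO 1 to pMCAO 3), a surgery that the series title names as stroke. All mice were labelled C57BL6/J, and cells were collected 24 h after surgery. The cells carried GFP under CX3CR1 and were sorted from muscle layer peeled off the small intestine. The genotype label does not mention the reporter allele, and monocytes also express Cx3cr1. The labels give neither age nor sex. The sham titles call replicates biological, but whether each library came from 1 animal is not stated. A pool appears in the description of pMCAO 3. The p-values therefore measure the spread between these libraries.

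Liver X receptors (LXRs) are nuclear receptors that bind oxidized cholesterol. They pair with retinoid X receptors on repeated DNA half-sites and switch on genes that move cholesterol out of the cell. Macrophages depend on them when they clear dying cells, because engulfed membranes bring a load of cholesterol. ABCA1 and ABCG1 pump cholesterol to lipoprotein particles, apolipoprotein E carries it, and MYLIP (also called IDOL) is a ubiquitin ligase that limits the entry of cholesterol. Fatty acids take another route. Lipoprotein lipase frees them from triglyceride, FABP4 carries them in the cytosol, and perilipin 2 coats the droplets in which they are stored.

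Total counts were 12.7 M to 34.4 M per library. Mitochondrial ribosomal RNA took 2.42% to 5.82% of the counts in sham libraries and 8.26% to 12.6% after pMCAO, and its part in the results was not tested. Macrophage markers were present throughout. All 10 were measured, and their summed level was 10022 to 13628 CPM (counts scaled to library total and composition) in sham libraries and 9592, 9171 and 8406 CPM in pMCAO 1, 2 and 3. Because these are sorted pools of RNA, fewer cells of a type and less RNA per cell of that type cannot be told apart in any value that follows.

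No gene of the 10 passed the threshold between the groups, an adjusted p under 0.05 by the edgeR quasi-likelihood test over all genes, which 17 of 17209 genes (0.0988%) passed, 12 higher after pMCAO (0.0697%) and 5 lower (0.0291%). Mylip came closest and was higher in every pMCAO library than in any sham library. Apoe, the most abundant of the 10, was lower on average, but its groups overlapped. What stood apart was a single library. In pMCAO 2, 5 of the 10 genes (Nr1h3, Lpl, Plin2, Gpnmb and Fabp4) were at least 2-fold above both other pMCAO libraries, a pattern found in 5.95% of all genes. At an unadjusted p under 0.05, 2 of the 10 genes were higher (Mylip and Plin2) and 1 lower (Apoe), against 6.97% and 6.47% of all genes. By DESeq2, 1 of the 10 (Mylip) passed the adjusted threshold, which 476 of 17209 genes passed there. The log2 change, pMCAO minus sham, was above 0 for 8 of the 10 genes, against 48.6% of all genes, with a median of 0.49 against -0.02. This is a description, as the 10 genes were chosen with earlier results of these data known. Without pMCAO 2, Nr1h3 (-0.42) and Lpl (-0.16) turned below 0, and Abcg1 (0.02), Plin2 (0.12), Gpnmb (0.65) and Fabp4 (0.61) had smaller changes. Abca1 (0.50) and Mylip (0.86) then had larger ones, and Nr1h2 (-0.50) and Apoe (-1.29) lay further below 0.

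**Figure D1:**
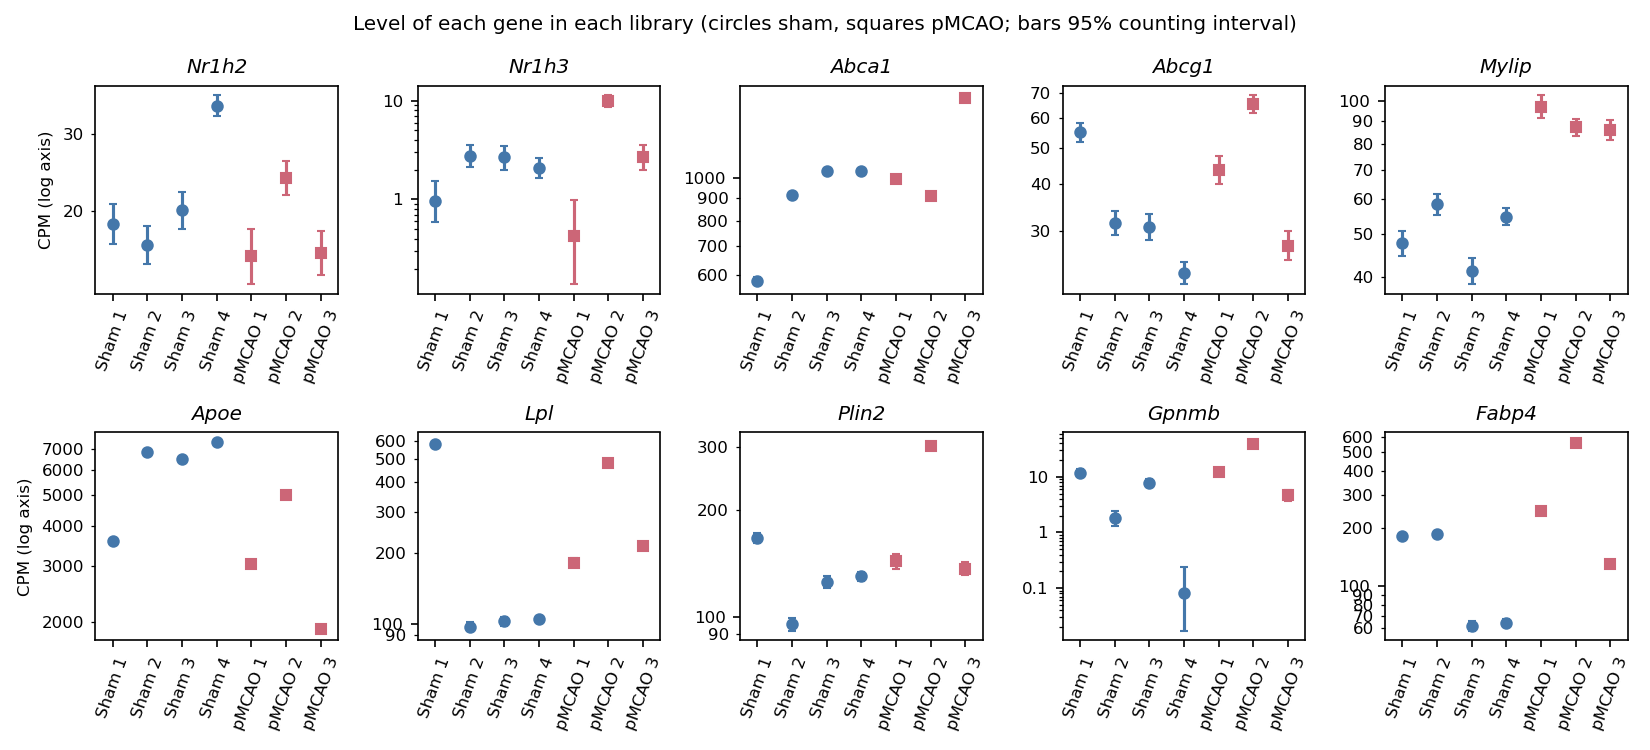
Level of each of the 10 genes in each of the 7 libraries, in CPM on a log axis, with circles for sham, squares for pMCAO and bars for the 95% counting interval of the library's own count. Mylip is the gene whose 3 squares lie above all 4 circles, and pMCAO 2 is the highest square for 8 of the 10 genes, all but Abca1 and Mylip.

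The receptors differed in level. Nr1h2, which encodes LXR beta (ENSMUSG00000060601, GRCm38 chromosome 7, 44549616 to 44553951, minus strand), was at 18.7, 16.7, 20.1 and 34.9 CPM in Sham 1 to 4 and at 15.8, 23.9 and 16.1 CPM in pMCAO 1 to 3. Sham 4 was the highest library and the other 6 lay close together, with overlapping groups. The change of Nr1h2 was -0.28 on the log2 scale (SE 0.31, adjusted p = 0.728), and without Sham 4 it was 0.0066. Nr1h3, which encodes LXR alpha (ENSMUSG00000002108, chromosome 2, 91184061 to 91202834, minus strand), was at 0.975, 2.75, 2.67 and 2.09 CPM in Sham 1 to 4 and at 0.427, 9.84 and 2.69 CPM in pMCAO 1 to 3. Both the lowest and the highest library were pMCAO libraries, with 5 counts in pMCAO 1 and 209 in pMCAO 2. The log2 change of Nr1h3 was 1.03 (SE 0.78, adjusted p = 0.592), and without pMCAO 2 it turned to -0.42. In the annotation 34 exon bases of Nr1h3 (1.35%) overlap Gm13783 on the same strand. Per kilobase of exon the level of Nr1h2 was 14.4, 4.56, 5.65 and 12.5 times that of Nr1h3 in Sham 1 to 4 and 27.7, 1.82 and 4.48 times in pMCAO 1 to 3. By this measure LXR beta transcripts were the more abundant in all 7 libraries, with the smallest excess in pMCAO 2.

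Abca1 is the best known direct target of LXR, and its promoter is known to hold an LXR element near the start. The RefSeq promoter windows of GRCm38.p6, from 250 bases before to 50 after a gene start, covered 7 of the 10 genes in 10 windows. They are shown for Abca1 and Plin2 because these are the 2 genes with a motif match. Capitals mark the E-box CACGTG in both and, in Abca1, a pair of hexamers in the direct repeat layout of an LXR element. Both genes are on the minus strand, and the sequences are printed in the direction of transcription.
Abca1, chr4:53159846-53160145: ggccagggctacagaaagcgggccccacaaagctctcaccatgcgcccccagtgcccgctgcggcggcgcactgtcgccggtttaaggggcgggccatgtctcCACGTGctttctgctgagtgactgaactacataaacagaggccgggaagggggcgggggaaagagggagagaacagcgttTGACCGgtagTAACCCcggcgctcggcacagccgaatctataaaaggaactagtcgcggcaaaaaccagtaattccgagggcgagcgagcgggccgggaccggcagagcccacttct
Plin2, chr4:86670010-86670309: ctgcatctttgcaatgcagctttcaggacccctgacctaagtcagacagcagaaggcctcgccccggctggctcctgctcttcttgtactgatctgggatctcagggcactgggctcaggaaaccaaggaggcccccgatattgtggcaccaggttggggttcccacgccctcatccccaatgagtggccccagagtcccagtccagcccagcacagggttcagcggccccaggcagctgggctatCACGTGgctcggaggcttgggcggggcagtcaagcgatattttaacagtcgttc
The strict LXR element was a direct repeat on either strand, made of the hexamer AGGTCA, its variants GGGTCA as well as AGTTCA, and the form GGTTCA, with NNNN between the 2 hexamers. It was in 0 of the 7 genes and in 27 of 32851 promoters (0.0822%). A looser form was chosen after the sequences were seen. It was a repeat of AGGTCA, with the same spacing and up to 3 mismatches in all, and it matched Abca1, as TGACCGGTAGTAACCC from -67 relative to the start, read on the coding strand. That form was in 21.9% of all promoters. CACGTG, the palindromic E-box, began at -147 in Abca1 and at -4 in Plin2 and was in 7.15% of promoters. The 2 motifs do not overlap in Abca1. A match is a description of letters and not a measured site.

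Abca1 (ENSMUSG00000015243, chromosome 4, 53030787 to 53159895, minus strand) was at 582, 917, 1039.6 and 1041 CPM in Sham 1 to 4 and at 998, 912 and 1529 CPM in pMCAO 1 to 3. Sham 1 was the lowest library and pMCAO 3 the highest, while pMCAO 1 and pMCAO 2 lay within the sham range. Its mean was 895 ± 216 CPM (SD, n = 4) after sham and 1147 ± 334 CPM (SD, n = 3) after pMCAO, a log2 change of 0.36 (SE 0.23, adjusted p = 0.527). Without pMCAO 3 the log2 change of Abca1 was 0.09, and without Sham 1 it was 0.20. Abcg1 (ENSMUSG00000024030, chromosome 17, 31057675 to 31117988, plus strand) was at 55.1, 31.5, 30.8 and 23.2 CPM in Sham 1 to 4 and at 43.7, 65.5 and 27.4 CPM in pMCAO 1 to 3. Here Sham 1 was the highest sham library and pMCAO 3 the lowest pMCAO library, the opposite of their places for Abca1. The log2 change of Abcg1 was 0.38 (SE 0.32, adjusted p = 0.639), and without pMCAO 2 it was 0.02. Per kilobase of exon the level of Abca1 exceeded that of Abcg1 in every library, by 7.45-fold in Sham 1, 9.80-fold in pMCAO 2 and 39.3-fold in pMCAO 3, with 16.1-fold to 31.6-fold in the others.

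Mylip, the ubiquitin ligase that limits cholesterol uptake (ENSMUSG00000038175, chromosome 13, 45389742 to 45412022, plus strand), was at 47.7, 58.5, 41.4 and 54.9 CPM in Sham 1 to 4 and at 97.2, 87.3 and 86.2 CPM in pMCAO 1 to 3. All 3 pMCAO libraries lay above all 4 sham libraries, and the 3 pMCAO values lay within 1.13-fold of each other. Of all genes, 5.99% were higher without overlap. Its mean was 50.6 ± 7.61 CPM (SD, n = 4) after sham and 90.2 ± 6.10 CPM (SD, n = 3) after pMCAO. The log2 change was 0.83 (SE 0.19, unadjusted p = 0.000479, adjusted p = 0.0899 by edgeR). With DESeq2, which called 476 genes in all, the adjusted p of Mylip was 0.00488 at a log2 change of 0.85. Over all alternatives the log2 change was 0.70 to 0.91, with an adjusted p of 0.00488 to 0.253. Among the markers of other cells, those of blood endothelium were also higher after pMCAO as a sum. The summed level of 10 blood endothelial markers was 182, 309, 112 and 123 CPM in Sham 1 to 4 and 462, 349 and 332 CPM in pMCAO 1 to 3, again without overlap, and the part of such cells in the Mylip values was not tested.

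Apoe, the apolipoprotein that macrophages secrete (ENSMUSG00000002985, chromosome 7, 19696109 to 19699188, minus strand), was at 3593, 6821, 6514 and 7317 CPM in Sham 1 to 4 and at 3046, 5013 and 1901 CPM in pMCAO 1 to 3. pMCAO 1 and pMCAO 3 lay below all sham libraries, and pMCAO 2 lay above Sham 1. The mean was 6061 ± 1679 CPM (SD, n = 4) after sham and 3320 ± 1574 CPM (SD, n = 3) after pMCAO, a log2 change of -0.87 (SE 0.31, unadjusted p = 0.0141, adjusted p = 0.256). Without pMCAO 2 the log2 change was -1.29 (adjusted p = 0.0682), and without pMCAO 3 it was -0.59 (adjusted p = 0.494). The macrophage markers C1qb, a chain of complement C1q, and Csf1r, the receptor of the growth factor that keeps macrophages alive, were lower on average as well. C1qb was at 2345, 3879, 2940 and 3335 CPM in Sham 1 to 4 and at 1964, 1953 and 1021 CPM in pMCAO 1 to 3 (adjusted p = 0.146). Csf1r was at 1478, 2446, 2557 and 2783 CPM in Sham 1 to 4 and at 1917, 1614 and 1908 CPM in pMCAO 1 to 3 (adjusted p = 0.496). Sham 1 was the lowest sham library for both markers, as for Apoe. Their part in the Apoe values was not tested.

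Lipoprotein lipase frees fatty acids for uptake. Lpl (ENSMUSG00000015568, chromosome 8, 68880491 to 68907448, plus strand) was at 582, 97.6, 103 and 105 CPM in Sham 1 to 4 and at 182, 483 and 214 CPM in pMCAO 1 to 3. Sham 1 was the highest of all 7 libraries, while Sham 2 to 4 lay close together and below all pMCAO libraries. The log2 change was 0.40 (SE 0.85, adjusted p = 0.876). Without Sham 1 the log2 change was 1.53 (adjusted p = 0.0733), and without pMCAO 2 it turned to -0.16. Sham 1 also held the highest level of monocyte markers among sham libraries, summed over 7 genes as 2425 CPM against 1570 to 1844 CPM. Ccr2, the monocyte chemokine receptor, was at 1216 CPM there and at 476 to 626 CPM in the other sham libraries. F13a1, the most abundant gene of that list, did not share this order, at 978, 872, 1265 and 1044 CPM in Sham 1 to 4, and made up most of the pMCAO sums at 1902, 1364 and 1738 CPM in pMCAO 1 to 3. The pMCAO libraries had monocyte sums of 3146, 2517 and 2352 CPM, and the part of monocytes in the Lpl values was not tested.

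Fabp4, the cytosolic carrier of fatty acids (ENSMUSG00000062515, chromosome 3, 10204088 to 10208576, minus strand), was at 182, 188, 61.7 and 64.4 CPM in Sham 1 to 4 and at 247, 557 and 131 CPM in pMCAO 1 to 3. The sham libraries fell into 2 levels, with pMCAO 3 between them and pMCAO 1 and pMCAO 2 above all 4. The log2 change of Fabp4 was 1.33 (SE 0.64, adjusted p = 0.431), and without pMCAO 2 it was 0.61. Capillary endothelium also expresses Fabp4. Pecam1, an adhesion molecule of endothelium, was at 63.2, 82.02, 22.3 and 28.9 CPM in Sham 1 to 4 and at 124, 83.8 and 93.1 CPM in pMCAO 1 to 3, with the same split of the sham libraries but not the excess of pMCAO 2. Cdh5, the cadherin of endothelium, was at 26.1, 63.8, 32.2 and 28.9 CPM in Sham 1 to 4 and at 84.5, 81.9 and 86.02 CPM in pMCAO 1 to 3. The part of endothelium in the Fabp4 values was not tested. Plin2, the droplet coat (ENSMUSG00000028494, chromosome 4, 86648386 to 86670060, minus strand), was at 167, 95.7, 126 and 130.5 CPM in Sham 1 to 4 and at 144, 303 and 137 CPM in pMCAO 1 to 3. pMCAO 1 and pMCAO 3 lay inside the sham range and pMCAO 2 above it. Its log2 change was 0.59 (SE 0.27, unadjusted p = 0.0449, adjusted p = 0.359), and without pMCAO 2 it was 0.12.

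Gpnmb, a transmembrane glycoprotein of lysosomes in lipid-laden macrophages (ENSMUSG00000029816, chromosome 6, 49036546 to 49070929, plus strand), was at 12.01, 1.81, 7.77 and 0.0825 CPM in Sham 1 to 4 and at 12.2, 39.8 and 4.71 CPM in pMCAO 1 to 3. Sham 4, the deepest library, held 3 counts of Gpnmb, and pMCAO 2 held 846. The sham libraries alone ran from 3 to 234 counts, pMCAO 3 lay within their range, and pMCAO 1 lay beside Sham 1. The log2 change was 1.82 with an SE of 1.35 (adjusted p = 0.606), and without pMCAO 2 it was 0.65. It was 3.43 with limma-voom (unadjusted p = 0.0123, adjusted p = 0.222).

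**Figure D2:**
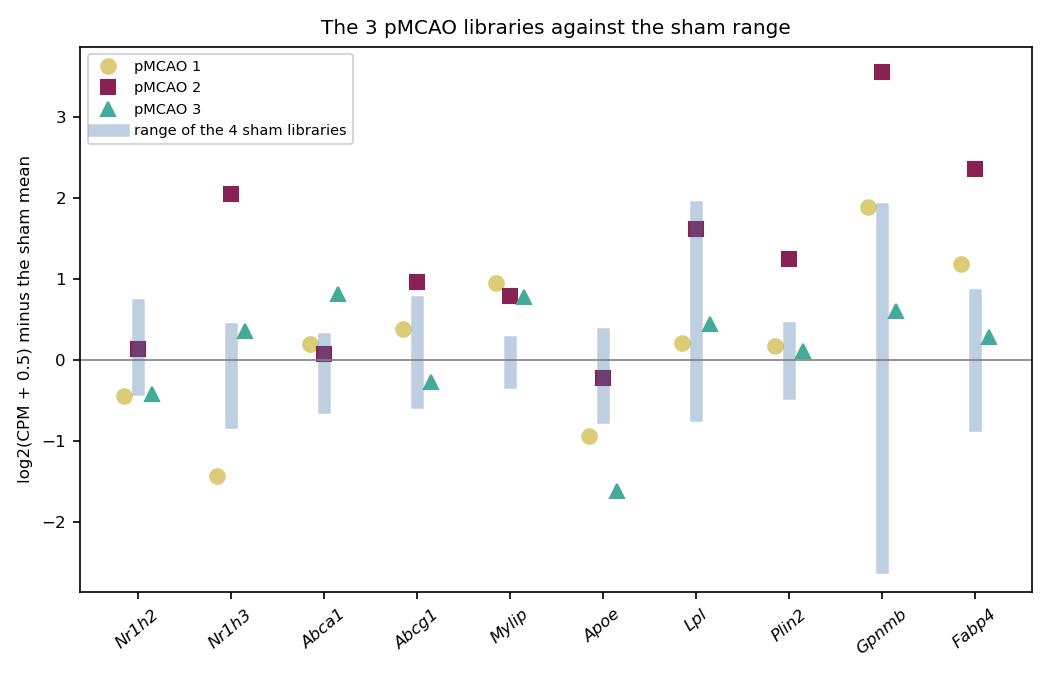
Level of each gene in pMCAO 1 (circles), pMCAO 2 (squares) and pMCAO 3 (triangles), as log2(CPM + 0.5) minus the sham mean, with the range of the 4 sham libraries as a bar. pMCAO 2 lies above the sham bar for Nr1h3, Abcg1, Mylip, Plin2, Gpnmb and Fabp4, and the 3 libraries lie close together for Mylip.

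The 3 pMCAO libraries differed widely among themselves. Gpnmb in pMCAO 2 was 3.26-fold its level in pMCAO 1 (95% counting interval 2.73 to 3.92) and 8.46-fold that in pMCAO 3 (6.75 to 10.7). Nr1h3 was 23.0-fold (9.71 to 71.7) and 3.66-fold (2.66 to 5.11) higher in pMCAO 2 in the same order. Fabp4 was 2.26-fold (2.17 to 2.35) and 4.25-fold (4.07 to 4.45) higher, and Lpl 2.65-fold (2.53 to 2.77) and 2.25-fold (2.17 to 2.34). Plin2 lay nearest to the limit of 2-fold, at 2.11-fold (2.00 to 2.23) and 2.21-fold (2.11 to 2.32). Apoe and Abcg1 passed that limit over pMCAO 3, at 2.64-fold and 2.39-fold, but not over pMCAO 1, at 1.65-fold and 1.501-fold. These intervals cover counting error only, and with 1 library on a side there is no test.

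The other pMCAO libraries showed no such group. In pMCAO 1 and in pMCAO 3, 0 of the 10 genes were at least 2-fold above both others, against 4.96% and 3.78% of all genes. Among the 11588 genes with a mean of at least 5 CPM the shares for pMCAO 1, 2 and 3 were 1.51%, 3.23% and 0.88%, and 9 of the 10 genes, all but Nr1h3, had such a mean. Lower values were as scattered. Nr1h3 was at least 2-fold below both others in pMCAO 1, Gpnmb was so in pMCAO 3 and no gene of the 10 was so in pMCAO 2, against 6.58%, 6.72% and 9.97% of all genes. Of all genes, 14.7% were at least 2-fold above both others in some pMCAO library. At a limit of 1.5-fold 8 genes stood higher in a single pMCAO library, Abca1 in pMCAO 3 and the others in pMCAO 2. At 3-fold 2 genes did, Nr1h3 and Gpnmb in pMCAO 2. The shares of all genes at these 2 limits were not computed, so these counts cannot be set against all genes. Abca1 and Mylip did not follow pMCAO 2. Abca1 in pMCAO 2 was 0.914 times its level in pMCAO 1 and 0.596 times that in pMCAO 3, and Mylip was 0.897 and 1.01 times. Of the 7 libraries pMCAO 2 was the highest for 5 genes (Nr1h3, Abcg1, Plin2, Gpnmb and Fabp4), against 15.7% of all genes. Mylip was highest in pMCAO 1 (15.1% of all genes), Abca1 in pMCAO 3 (17.4%), Lpl in Sham 1 (14.2%), and Nr1h2 and Apoe in Sham 4 (13.4%). None of the 10 was highest in Sham 2 (13.4%) or Sham 3 (10.8%).

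**Figure D3:**
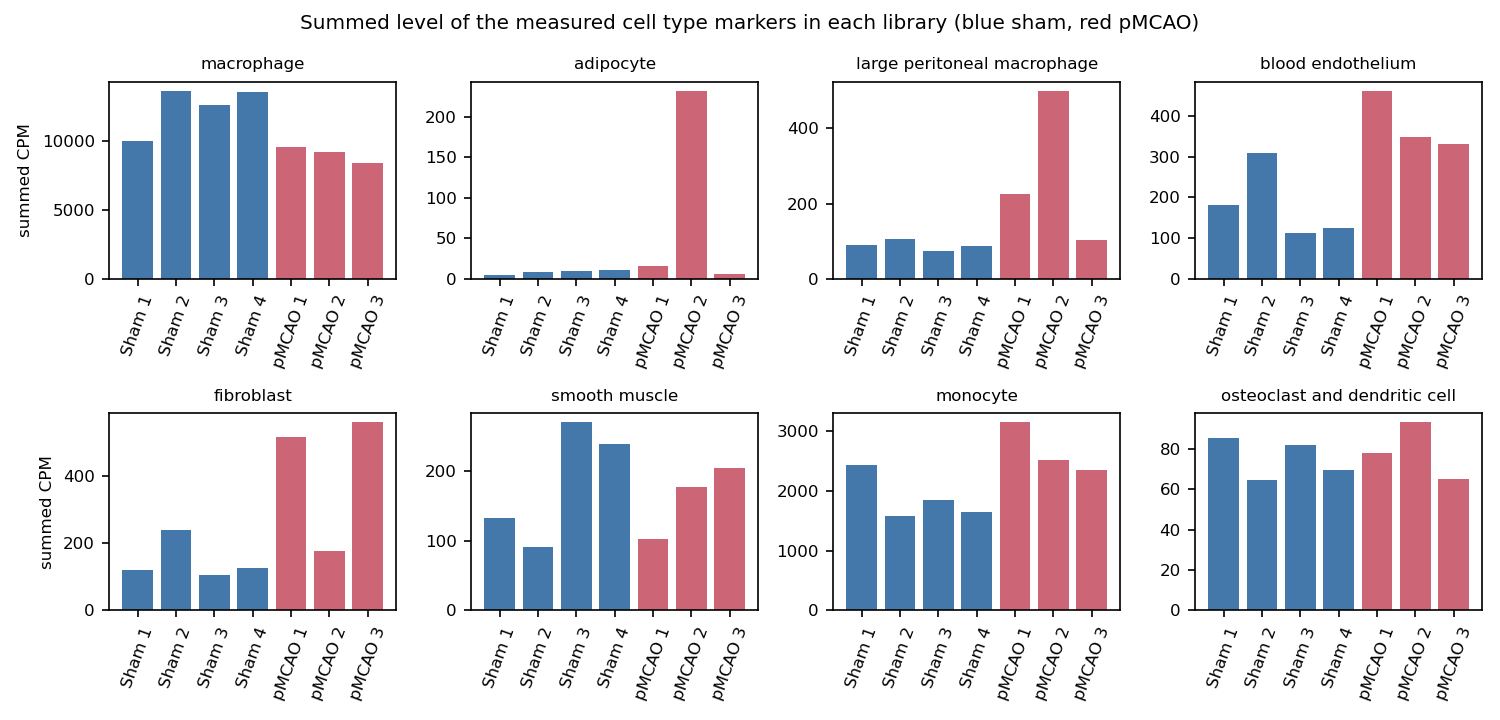
Summed CPM of the measured markers of 8 cell types in each library, with sham bars in blue and pMCAO bars in red, each axis from 0. Adipocyte and large peritoneal macrophage markers are highest in pMCAO 2, at 232 and 500.0 CPM, and fibroblast markers are highest in pMCAO 1 and pMCAO 3.

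Markers of other cells also stood apart in pMCAO 2. Of 10 adipocyte markers 3 were measured (Cfd, Car3 and Aqp7), and the other 7, Adipoq and Plin1 among them, had no row. All genes with a row were above 0.5 CPM in at least 4 libraries, so a gene present in pMCAO 2 alone would have none. The 3 summed to 4.52 to 11.02 CPM in sham libraries, 15.98 CPM in pMCAO 1, 232 CPM in pMCAO 2 and 5.94 CPM in pMCAO 3. Car3, a carbonic anhydrase abundant in fat, was at 159 CPM in pMCAO 2 and at 4.96 CPM or less elsewhere, and the adipocyte protease Cfd was at 58.3 CPM and at 4.02 CPM or less elsewhere. Adipocytes express Lpl, Plin2 and Fabp4 as well.

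Of 10 large peritoneal macrophage markers 9 were measured, without the defining factor Gata6. Their sum was 74.9 to 107 CPM in sham libraries and 227, 500.0 and 102 CPM in pMCAO 1 to 3. In pMCAO 2 most of it was Saa3, an acute phase protein, which was at 110.4, 308 and 3.87 CPM in pMCAO 1 to 3 and at 8.26 CPM or less in sham libraries. Bhlhe41, second in mean level on that list, was at 38.3 CPM in pMCAO 2 and at 20.8 to 41.1 CPM in sham libraries. Some other genes of the list were high in pMCAO 2 as well, named here after their values were seen. Prg4 was at 47.98 CPM there and at 5.75 to 11.5 CPM in sham libraries, Cxcl13 at 32.2 against 0.706 to 3.91 CPM, and Alox15 at 14.8 against 0.880 to 2.47 CPM. Selp was at 2.02 against 0 to 0.774 CPM. The rest did not stand apart there. Timd4 was at 43.2 CPM in pMCAO 2 and 41.4 CPM in pMCAO 1, and Garnl3 at 9.84 against 5.24 to 10.5 CPM in sham libraries. Icam2 was at 3.34 CPM in pMCAO 2, its lowest library. Of the 9 genes, 3 were at least 2-fold above both other pMCAO libraries in pMCAO 2, against 5.95% of all genes. The part of adipocytes or of peritoneal macrophages in the pMCAO 2 values of the 10 genes was not tested.

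The remaining marker lists varied in other ways. Fibroblast markers (9 of 10 measured, Dcn and Gsn the most abundant) summed to 104 to 237 CPM in sham libraries and 515, 177 and 558 CPM in pMCAO 1 to 3. Smooth muscle markers (8 of 8, led by Myh11 and Acta2) summed to 91.4 to 270.2 CPM in sham libraries and 102, 178 and 204 CPM in pMCAO 1 to 3. Osteoclast and dendritic cell markers (7 of 7, led by Zbtb46 and Flt3) summed to 64.6 to 85.4 CPM in sham libraries and 78.1, 93.1 and 65.1 CPM in pMCAO 1 to 3. The sum was highest in pMCAO 2, but Zbtb46 was highest in Sham 3 (35.0 CPM) and Flt3 and Xcr1 in Sham 1 (31.1 and 9.19 CPM). Acp5 was at 32.7 CPM in pMCAO 2 and at 11.7 to 18.6 CPM elsewhere. Ccr7 (7.02 CPM) and Ocstamp (2.92 CPM) were also highest in pMCAO 2, and Ctsk (1.22 CPM) was lowest there. Of all marker genes tested, Sox17 of the endothelial list passed the threshold (adjusted p = 0.0410).

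Set per kilobase of exon, the 10 genes differed widely in sham libraries. The length joins all annotated exons of a gene, such as 4489 bases for Fabp4 and 10478 for Lpl. It can exceed the length of the transcript in the cells, so the order below holds for this measure only. Apoe led with 2835 ± 785 CPM per kilobase (SD, n = 4), followed by Abca1 with 86.4 ± 20.9. Plin2 (37.0 ± 8.33), Fabp4 (27.6 ± 15.7), Lpl (21.2 ± 22.9) and Mylip (15.7 ± 2.35) formed a middle group whose neighbours overlapped within their SDs. Nr1h2 (6.74 ± 2.47) and Abcg1 (4.82 ± 1.89) overlapped with each other, and so did Nr1h3 (0.844 ± 0.326) and Gpnmb (0.832 ± 0.843) at the bottom. After pMCAO, Fabp4 stood at 69.4 ± 49.1 CPM per kilobase (SD, n = 3), above Plin2 at 55.5 ± 26.8, with overlapping SDs, and Mylip (27.9 ± 1.89) and Lpl (28.0 ± 15.7) were level.

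Genes around the 10 were read from 3 lists. Of 22 other LXR targets and partners 17 were tested and 0 passed the threshold. At an unadjusted p under 0.05, 4 were higher and 1 was lower, against 6.97% and 6.47% of all genes, and the median log2 change was 0.31 against -0.02 for all genes. In pMCAO 2, 4 of the 17 (Apoc1, Apoc2, Pltp and Rxrb) were at least 2-fold above both other pMCAO libraries, against 5.95% of all genes. The 3 with the smallest p were cofactors and an engulfment receptor. Ncoa1, a coactivator of nuclear receptors, was at 139, 111, 149.5 and 147 CPM in Sham 1 to 4 and at 248, 176 and 234 CPM in pMCAO 1 to 3 (log2 change 0.68, SE 0.18, adjusted p = 0.141). Ncor1, a corepressor that LXRs recruit without ligand, was at 360, 305, 389 and 379 CPM in Sham 1 to 4 and at 486, 452 and 523 CPM in pMCAO 1 to 3 (log2 change 0.44, adjusted p = 0.258). In both the groups did not overlap. Mertk, the receptor for dying cells, which is also on the macrophage marker list, was at 272 to 494 CPM in sham libraries and at 557, 439 and 552 CPM in pMCAO 1 to 3 (log2 change 0.54, adjusted p = 0.272).

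**Figure D4:**
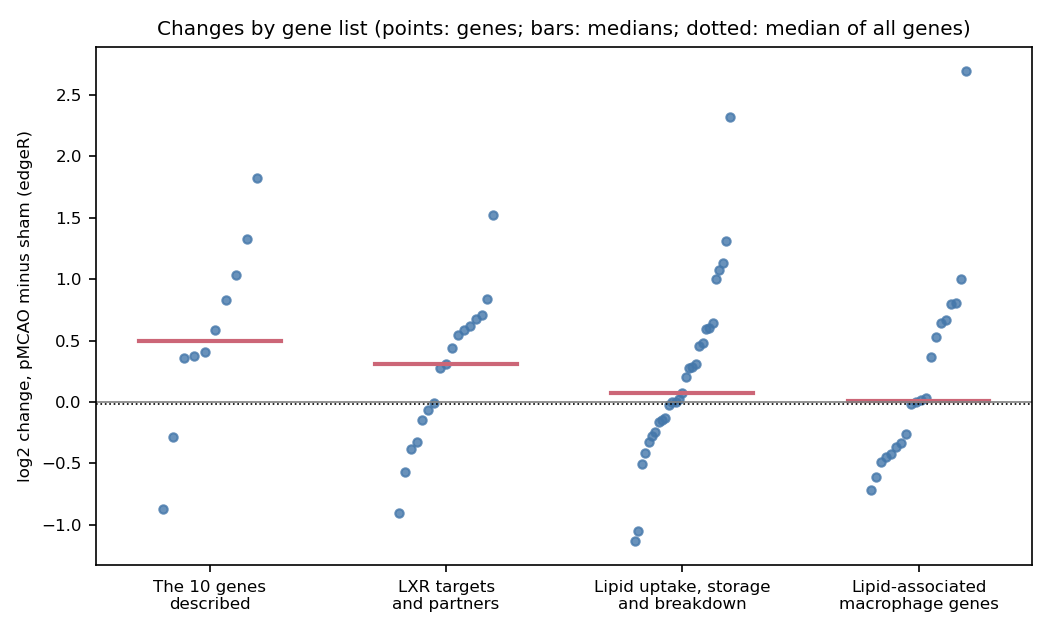
The log2 change (pMCAO minus sham, edgeR) of each tested gene in the 10 genes described and in the 3 lists, with a bar at each list's median and a dotted line at the median of all genes. The medians are 0.49, 0.31, 0.07 and 0.01, and the genes of each list spread to both sides of 0.

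Genes of lipid uptake, storage and breakdown went both ways. Of 32, 29 were tested and 0 passed the threshold, with 7 higher and 3 lower at an unadjusted p under 0.05 (6.97% and 6.47% of all genes) and a median log2 change of 0.07. Msr1, a scavenger receptor for modified lipoproteins, was at 444, 427, 408 and 377 CPM in Sham 1 to 4 and at 706, 528 and 652 CPM in pMCAO 1 to 3, without overlap (log2 change 0.60, SE 0.16, adjusted p = 0.151). Ppard, a nuclear receptor for fatty acids, was at 19.1, 20.9, 13.01 and 19.1 CPM in Sham 1 to 4 and at 7.52, 12.5 and 6.0 CPM in pMCAO 1 to 3, lower without overlap (log2 change -1.05, SE 0.34, adjusted p = 0.209). In this list 5 genes lay higher without overlap and 2 lower, against 5.99% and 6.58% of all genes, and 0 were at least 2-fold above both other pMCAO libraries in pMCAO 2.

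Of the 20 genes of lipid-associated macrophages, all tested, 0 passed the threshold. The log2 change was above 0 for 10 and below 0 for 10, with a median of 0.01, and at an unadjusted p under 0.05 there were 5 higher and 2 lower, against 6.97% and 6.47% of all genes. 3 of them (Lipa, Cd36 and Fabp5) are also on the list before. Clec7a encodes dectin-1, which binds fungal beta-glucan, and was at 138, 120.0, 92.6 and 91.0 CPM in Sham 1 to 4 and at 154, 239 and 182 CPM in pMCAO 1 to 3 (log2 change 0.80, SE 0.20, adjusted p = 0.132). The lysosomal protease gene Ctsl was at 143 to 185 CPM in sham libraries and at 237, 353 and 199 CPM in pMCAO 1 to 3 (log2 change 0.67, adjusted p = 0.190, and 0.40 without pMCAO 2). Cd36, which takes up fatty acids and oxidized lipoproteins, was at 1226, 1212, 734 and 781 CPM in Sham 1 to 4 and at 1321, 1709 and 1598 CPM in pMCAO 1 to 3 (log2 change 0.64, adjusted p = 0.220). None of the 3 overlapped between groups, and 5 of the 20 genes lay higher without overlap, against 5.99% of all genes. In pMCAO 2, 2 of the 20 (Lgals3 and Spp1) were at least 2-fold above both other pMCAO libraries, against 5.95% of all genes. With DESeq2, which called 476 of 17209 genes, Ncoa1, Msr1 and Clec7a, named for their small p, had adjusted p of 0.0273, 0.0263 and 0.0222.

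Patterns over the 7 libraries are given as Pearson r of log2(CPM + 0.5), as a description, since all values share libraries and depth. Among the 10 genes the closest were Abcg1 and Gpnmb (r = 0.87, and 0.79 without pMCAO 2). Lpl and Plin2 had r = 0.79 (0.81 without pMCAO 2), while Plin2 and Fabp4 had r = 0.67, which fell to 0.11 without pMCAO 2. Abca1 and Abcg1 ran in opposite order (r = -0.62), with r = -0.74 without pMCAO 2, -0.48 without Sham 1 and -0.33 without both. The genes that follow are the best of a search. Over 7 libraries, the best of so many genes can reach a high r without any relation. Among 11579 other genes with a mean of at least 5 CPM, the 2 most like Apoe were Blvrb and Tbkbp1 (both r = 0.99), and the 2 most like Abca1 were Sgce (0.99) and Il6ra (0.98). Those most like Mylip were Lamb1 and Timp3 (both 0.96), a laminin chain and a metalloproteinase inhibitor. Fabp4 was followed by Smpdl3a (0.99), a phosphodiesterase on the LXR list, and Fcmr (0.98), Lpl by Cers6 and Bach2 (both 0.98), and Plin2 by Agpat4 and Cxcl1 (both 0.98). For Abcg1 they were Gm24187 and Mmp19 (both 0.98), for Gpnmb Gm29361 and Slc6a8 (both 0.97), for Nr1h3 Mcm3ap and Tmem150b (both 0.97) and for Nr1h2 Cit (0.97) and Mib2 (0.96).

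**Figure D5:**
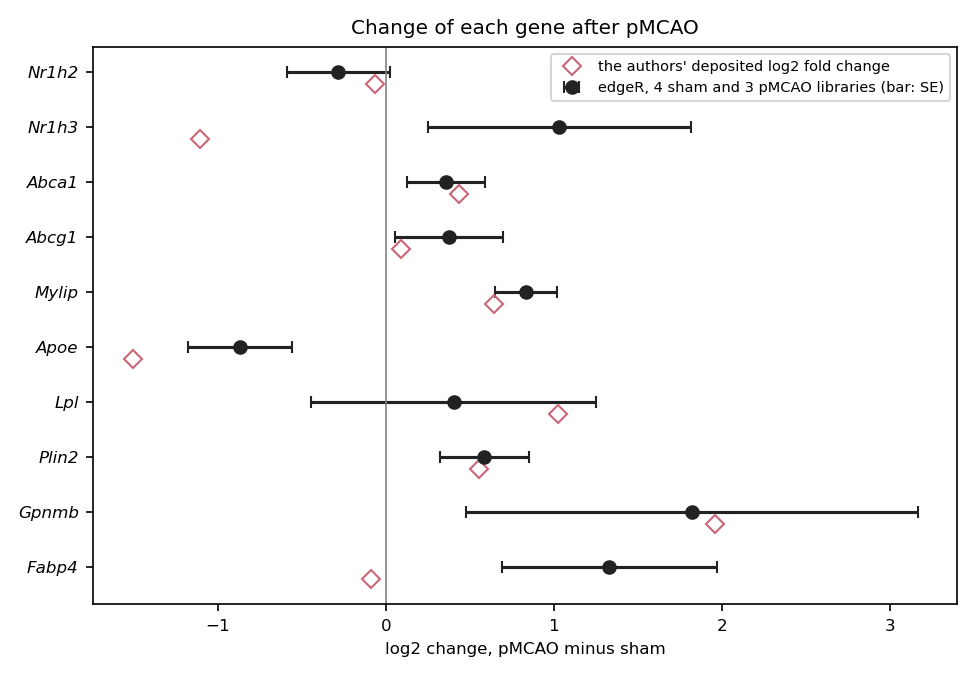
The log2 change of each gene (pMCAO minus sham) from the edgeR fit over 7 libraries, with its SE as a bar, beside the value of the authors' deposited table (open diamonds). The deposited values lie on the other side of 0 for Nr1h3 and Fabp4.

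The authors' deposited table gave other values for some of the 10 genes. In the authors' deposited table the log2 fold change was -1.51 for Apoe (FDR 0.0554), 1.02 for Lpl (FDR 0.146), 0.64 for Mylip (FDR 0.280) and -0.09 for Fabp4 (FDR 0.910). The authors' deposited table also had Nr1h3 at -1.11 (FDR 0.595), Abca1 at 0.44, Abcg1 at 0.09, Plin2 at 0.55, Gpnmb at 1.96 and Nr1h2 at -0.07, and none of the 10 genes among its 14 with an FDR under 0.05. Over the 11588 genes with a mean of at least 5 CPM, the deposited values differed by a median of 0.253 from the difference between the means of log2(CPM + 0.5) over all 7 libraries, and by 0.0246 from the difference between Sham 2 and the mean of pMCAO 1 and pMCAO 3. For Fabp4 the latter was -0.07, for Lpl 1.02, for Nr1h3 -0.92 and for Apoe -1.50. These libraries do not include pMCAO 2, in which Fabp4, Lpl and Nr1h3 were high, nor Sham 1, in which Lpl was high. Which model made the deposited values is not stated, and the cause of the difference was not tested.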

How the data were processed

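Small intestinal muscularis macrophages were profiled by RNA-seq in 7 libraries, each from 2.0 ng of total RNA with ribosomal RNA cleaved away, read as pairs of 100 bases (per the labels). The authors made the deposited read counts per gene with STAR and featureCounts on GRCm38 (mm10), per the submitters' processing notes, which also name limma. Versions, annotation release and strand setting are not stated there, so overlapping genes are uncertain. Dividing each count by its library's total gives the deposited CPM values of the authors, within 0.0005. The authors also deposited a log2 fold change per gene with its p-value and FDR. The table lists genes above 0.5 CPM in at least 4 libraries, and all 17209 genes passed the edgeR filter. A gene above that level only in the 3 pMCAO libraries is thus not listed and is in no share of all genes.

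Counts were tested with edgeR 4.0.16 (R 4.3.3), a two-sided quasi-likelihood F test with robust dispersions, TMM factors and group as the only term, with Benjamini-Hochberg adjustment over all genes. The CPM values in the text are TMM-scaled, and an SE is the size of the log2 change over the root of F. Counting intervals are exact Poisson intervals at 95%. They cover counting error only, since the labels name no molecular identifiers and amplified copies of a molecule would each be counted. A count of 3 is 0.0825 CPM in Sham 4 and 0.256 CPM in pMCAO 1. Lengths and positions came from the GENCODE annotation of GRCm38, which held all 10 genes, and promoters from RefSeq. A length joins all annotated exons of a gene and can exceed that of its transcripts. The 10 genes, the lists and the tests were chosen with earlier results of these data known. Besides the 10 genes, named were the 3 of each list with the smallest p, the 2 most abundant of each marker list and the 2 most alike in pattern to each gene. Aqp7, Prg4, Cxcl13, Alox15, Selp, Timd4, Garnl3, Icam2, Sox17, Acp5, Xcr1, Ccr7, Ocstamp, Ctsk, Apoc1, Apoc2, Pltp, Rxrb, Lgals3, Spp1, Gpihbp1, Angptl4 and Lmf1 are named outside this rule, picked with their values in view. A result that falls under the rule is not reported here. Alternatives covered scaling, filters, DESeq2 1.42.0, limma-voom (limma 3.58.1), a replicate block, the fold limit and leaving out each library. The test was tried on simulated data first.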

Additional observations from a re-analysis of the deposited data

Results flagged for a closer look

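Lpl in Sham 1 stood at 581.8 CPM, with the next sham library at 105 CPM. The gap took 0.984 of the range of the 4 sham libraries, above the critical value of Dixon's test for 4 samples. This was asked of 19 genes, the 10 described and the 9 named from the lists, and chance flags about 1 in 20 groups. The group comparison of Lpl depended on this library, with a log2 change of 0.40 (adjusted p = 0.876 by edgeR) over all libraries and 1.53 (adjusted p = 0.0733) without Sham 1.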

How the results depend on the processing

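Of 138 values of the 10 genes under 14 other settings, 134 kept direction and side of the threshold, and Mylip passed it with DESeq2. The other 3 turned sign, none of them past the threshold in either form: Nr1h2 without Sham 4 (0.0066, range over single libraries left out -0.50 to 0.0066), Nr1h3 without pMCAO 2 (-0.42, range -0.42 to 1.56) and Lpl without pMCAO 2 (-0.16, range -0.16 to 1.53). Among 126 values of the named list genes 123 kept both and Ncoa1, Msr1 and Clec7a passed with DESeq2. The number of the 10 genes past the threshold was 0 under each setting but DESeq2, with 1. The number of all genes past it was 17, 29 without scaling factors (14 higher, 15 lower; the overall median then moved from -0.02 to -0.14), 76 over genes with a mean of at least 5 CPM, 476 with DESeq2 and 35 with limma-voom. With a library left out it was 0 (without pMCAO 1, with 1987 genes under an unadjusted p of 0.05 in edgeR) to 100 (without pMCAO 2), with 47 without Sham 1, 47 without Sham 2, 9 without Sham 4 and 7 without pMCAO 3. The cause was not tested. The 5 genes high in a single pMCAO library became 8 at 1.5-fold (Abca1 in pMCAO 3, the others in pMCAO 2) and 2 at 3-fold. The shares of all genes at 1.5-fold and 3-fold were not computed, so these counts show only how the number moves with the limit. Whether replicate numbers pair the libraries is not settled. Same-numbered deviations from the group means had r of -0.10, 0.01 and 0.18 over 11588 genes, and only number 3 matched its own best. With means of 4 and 3 libraries, a low r cannot exclude a pairing. With a replicate block 21 genes and 0 of the 10 passed, and Mylip had a log2 change of 0.89 (adjusted p = 0.233) and Gpnmb of 0.98 (adjusted p = 0.875). Nr1h3 has no value over genes of at least 5 CPM, and Lpl no DESeq2 adjusted p. Counts were few for Nr1h3 in pMCAO 1 (5 counts) and for Gpnmb in Sham 4 (3 counts), although Sham 4 was the deepest library.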

Other observations

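The proteins that place and regulate lipoprotein lipase were read beside Lpl, chosen after their values were seen. Gpihbp1, which anchors the lipase to capillary endothelium, was at 16.8 ± 9.53 CPM (SD, n = 4) after sham and 36.9 ± 16.4 CPM (SD, n = 3) after pMCAO. Its log2 change was 1.13 (SE 0.42, adjusted p = 0.272 by edgeR), and its groups overlapped. Angptl4, which inhibits the lipase, was at 4.86 ± 1.64 and 10.2 ± 4.99 CPM (log2 change 1.07, adjusted p = 0.311), and its groups did not overlap. Lmf1, which matures the lipase, was at 26.9 ± 3.22 and 20.2 ± 4.07 CPM (log2 change -0.42, adjusted p = 0.484), with overlapping groups. Spp1, the secreted osteopontin of lipid-laden macrophages, was at 30.04 ± 36.3 CPM after sham and 194 ± 181 CPM after pMCAO, with a log2 change of 2.70 and an SE of 1.21 (adjusted p = 0.420). The groups of Spp1 overlapped, with 154, 392 and 36.8 CPM in pMCAO 1 to 3 and 84.3 CPM in Sham 3.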
